A study of Homo sapiens with 14 samples.

Results

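A set of 9 genes that take up, bind, make and break down retinoids was followed through the differentiation of NT2 cells, a human embryonal carcinoma line. They are STRA6 (uptake), CRABP1 and CRABP2 (binding), RDH10, DHRS3 and ALDH1A2 (synthesis and its reversal), and CYP26A1, CYP26B1 and CYP26C1 (breakdown). The set was chosen by name, with earlier results of these data known. All 9 were found among the 25952 genes counted and passed the low-count filter that left 19142 genes to test. RNA sequencing gave 14 libraries in 7 groups of 2. The groups were NT2 cells after 5, 10 and 21 days of all-trans retinoic acid (RA), NT2 cells after 5, 10 and 21 days of bone morphogenetic protein 2 (BMP2), and untreated NT2 cells at day 0. RA had a final concentration of 10 µM and is named in the protocol as the neuron-inducing agent. BMP2 is named as the muscle-inducing agent, first tested at 30 ng/ml and later used at 40 ng/ml, and the dose of each library is not given. All cultures grew in medium with fetal bovine serum. RA was added in DMSO, whereas the day 0 cells carry the label of no treatment. The DMSO cultures that the protocol mentions were not analysed here. Each comparison with day 0 therefore joins the agent with the time in culture, and for RA with its solvent. All libraries come from 1 cell line, and nothing says whether the 2 libraries of a group came from separate cultures, so the p-values measure the spread between libraries, which may be technical.

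As background, cells take up retinol through the membrane receptor STRA6 and oxidise it in steps. RDH10 turns retinol into retinaldehyde, DHRS3 turns retinaldehyde back into retinol, and ALDH1A2 oxidises retinaldehyde to retinoic acid. CRABP1 and CRABP2 carry retinoic acid inside the cell, and CRABP2 delivers it to the nuclear receptors. The CYP26 enzymes hydroxylate it, which starts its removal. CYP26A1 is a classic target of the retinoic acid receptors, which bind pairs of a short motif repeated in the same direction with a fixed spacing.

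The promoter windows of 3 members are shown because these genes had the highest mean levels per kilobase of exons under RA: CRABP2 on all 3 days, followed by CYP26A1 on days 5 and 10 and by CYP26B1 on day 21. The windows run from 250 bases before to 50 bases after a transcript start and come from RefSeq on GRCh38.p14, which is not the hg19 build of the counts. They are chr10:93073643-93073942 on the plus strand for CYP26A1, chr2:72147813-72148112 on the minus strand for CYP26B1 and chr1:156705735-156706034 on the minus strand for CRABP2. Capitals mark a motif pair found by the search described after them.
CYP26A1: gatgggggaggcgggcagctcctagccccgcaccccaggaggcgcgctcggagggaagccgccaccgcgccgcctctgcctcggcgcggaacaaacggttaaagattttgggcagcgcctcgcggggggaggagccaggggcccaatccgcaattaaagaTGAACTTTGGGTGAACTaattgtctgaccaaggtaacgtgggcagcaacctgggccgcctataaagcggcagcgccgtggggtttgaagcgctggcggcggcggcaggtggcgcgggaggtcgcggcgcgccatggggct
CYP26B1: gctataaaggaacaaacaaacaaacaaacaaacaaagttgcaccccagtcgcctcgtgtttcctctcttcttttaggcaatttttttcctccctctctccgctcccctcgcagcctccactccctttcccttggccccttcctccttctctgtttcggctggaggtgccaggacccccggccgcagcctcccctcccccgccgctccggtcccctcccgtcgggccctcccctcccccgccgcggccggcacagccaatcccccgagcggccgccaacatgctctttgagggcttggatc
CRABP2: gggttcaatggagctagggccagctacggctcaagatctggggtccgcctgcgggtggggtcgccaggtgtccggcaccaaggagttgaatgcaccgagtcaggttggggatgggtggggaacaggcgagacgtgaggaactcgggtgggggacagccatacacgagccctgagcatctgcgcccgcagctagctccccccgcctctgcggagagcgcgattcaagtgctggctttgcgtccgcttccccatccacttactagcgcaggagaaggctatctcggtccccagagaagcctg

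The search took the 6-base motif AGGTCA, its close variant AGTTCA, the further form GGGTCA, and finally the form GGTTCA. It looked for any of these followed by any of them in the same direction, 1, 2 or 5 bases apart, on both strands. In the 16 windows of the 8 members with a RefSeq window there was 1 match. It lies in the CYP26A1 window shown, on the minus strand, 90 to 74 bases before the start, at chr10:93073803-93073819. Read on its own strand it is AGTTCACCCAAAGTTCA, with 5 bases between the motifs. Pairs spaced by 5 bases occur in 31 of all 35116 windows (0.0883%), and any of the 3 spacings in 91 (0.259%). The other windows of the members hold no such pair, which says only that these letters are not there. RDH10 had no window in the table used.

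Total counts ran from 45773278 to 75754396 per library. The pluripotency markers POU5F1, NANOG, LIN28A, SOX2, TDGF1 and DPPA4 summed to 159 to 162 CPM (counts scaled to library size) at RA day 21 and to 163 to 167 CPM at BMP2 day 21, against 5426 to 6082 CPM in untreated cells. Most of the day 21 sums came from DPPA4, at 137 and 137 CPM with RA and 152 and 140.4 CPM with BMP2. POU5F1 had 0.508 and 0.296 CPM at RA day 21 and 2.42 and 4.11 CPM at BMP2 day 21, against 1011 and 1006 CPM in untreated cells. Of 7 listed neuron markers 6 are in the table, and their sum was 703 to 1047 CPM at RA day 10 and 532 to 566 CPM at RA day 21, against 70.6 to 89.9 CPM in untreated cells. At RA day 21 most of that sum came from NEFM (358 and 359 CPM) and MAP2 (133 and 171 CPM), while DCX had 6.54 and 4.61 CPM there against 21.1 and 5.26 CPM in untreated cells, and ELAVL3 had 0.837 and 0.795 CPM against 4.68 and 2.57 CPM. Of the muscle markers, the 5 smooth muscle genes summed to 559 to 1278 CPM at BMP2 day 5, against 35.3 to 88.8 CPM in untreated cells. The 4 skeletal muscle genes summed to 3.52 to 4.8, 4.26 to 8.29 and 3.25 to 3.45 CPM at BMP2 days 5, 10 and 21. In untreated cells they summed to 7.17 to 8.23 CPM. Of these, the regulators MYOD1 and MYOG had no count at BMP2 days 5 and 10, and at most 0.0811 CPM in untreated cells. At BMP2 day 21 MYOD1 had no count and MYOG had 0 and 0.294 CPM. Besides smooth muscle, other lists had higher sums at BMP2 day 5. Trophoblast and amnion genes summed to 603 to 716 CPM against 5.37 to 6.55 CPM in untreated cells. Epithelial genes summed to 4826 to 5523 CPM against 1477 to 1736 CPM, and cardiac muscle genes to 96.2 to 239 CPM against 23.6 to 41.6 CPM. Most of the first sum came from HAND1 (484 and 566 CPM), while CGA had 0 and 0.22 CPM against no count in untreated cells. Most of the epithelial sum came from KRT8 (4525 and 3621 CPM), while EPCAM had 128 and 226 CPM against 211 and 197 CPM. The 5 fibroblast and matrix genes summed to 5767 to 5797 CPM at RA day 21 and to 31456 to 32905 CPM at BMP2 day 21, against 14.3 to 28.1 CPM in untreated cells. The part of these shifting markers in the results for the 9 genes was not tested. In bulk RNA, fewer cells of a type and less RNA per cell cannot be told apart.

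Some BMP2 libraries stand apart. Pearson r was taken over log2 CPM of all tested genes. Replicate 2 of BMP2 day 5 was closest to replicate 1 of BMP2 day 10, at 0.981. The BMP2 day 10 pair reached 0.918 and the BMP2 day 5 pair 0.971. Replicate 2 of BMP2 day 10 was closest to the BMP2 day 21 libraries, at 0.963 and 0.966. POU5F1 had 109.7 and 1.52 CPM in BMP2 day 10 replicates 1 and 2. The BMP2 day 10 group thus joins a library near BMP2 day 5 with another near BMP2 day 21. Its values without replicate 1 rest on replicate 2 alone. For 8 of the 9 genes, BMP2 day 5 replicate 2 and BMP2 day 10 replicate 1 differed by at most 1.19-fold, and CYP26C1 differed by 5.98-fold. Between the BMP2 day 10 replicates, 8 of the 9 genes differed by over 2-fold, and CRABP2 by 11.7-fold. Between the BMP2 day 5 replicates, 7 of the 9 did so. Values with both of the alike libraries left out are given where that changed a call or moved a called value by over 1.5 times. Such fits leave BMP2 days 5 and 10 with 1 library each. Whether libraries were exchanged between days was not tested.

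Genes were called at an adjusted p under 0.05 from edgeR's quasi-likelihood test with Benjamini-Hochberg adjustment over all 19142 genes, and all adjusted p-values below come from it. With 2 libraries against 2, an exact permutation test of 1 gene cannot go below p = 0.333. A fit without 1 library leaves its group with 1, so a call can end there while the value hardly moves. Against untreated cells, 4 of the 9 genes rose at RA day 5 and none fell, where 8.31% of all tested genes were called, 5.59% higher and 2.72% lower. For RA day 10, 6 rose and none fell, where 24% of all genes were called, 12.9% higher and 11.1% lower. By RA day 21, 5 rose and 1 fell, where 44.6% were called, 23.4% higher and 21.1% lower. The median log2 fold change of the 9 was 2.95, 2.98 and 2.28 at RA days 5, 10 and 21, against -0.00, 0.06 and 0.10 over all tested genes. Under BMP2, 1 rose and 1 fell on day 5, where 29.2% of all genes were called, 15.9% higher and 13.4% lower. On day 10, 2 rose and 1 fell, where 36.3% were called, 19.8% higher and 16.4% lower. On day 21, 2 rose and 1 fell, where 47.1% were called, 25% higher and 22.1% lower. The BMP2 counts thus lie near what all genes show. All of these comparisons share the 2 untreated libraries.

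RA and BMP2 libraries of the same day were compared directly. At day 5, 6 of the 9 genes were higher with RA and none lower, where 12.2% of all genes were called, 5.97% higher and 6.25% lower. At day 10, 4 were higher and none lower, where 10.8% were called, 5.11% higher and 5.73% lower. At day 21, 4 were higher and 1 lower, where 12.1% were called, 5.99% higher and 6.07% lower. Within RA, day 21 relative to day 5 gave 2 higher and 3 lower (28.7% of all genes called, 13.9% higher and 14.8% lower). Within BMP2 it gave 1 higher and none lower (15.5% called, 7.77% higher and 7.75% lower). CYP26A1, CYP26B1, CRABP2 and DHRS3 were higher with RA at each of the 3 days. Fitted on only the 4 libraries of day 10, none of these 4 was called there (adjusted p = 0.15 to 0.28). The median log2 difference of the 9 was 3.23, 2.16 and 2.13, against 0.00, -0.00 and 0.02 over all genes.

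**Figure D1:**
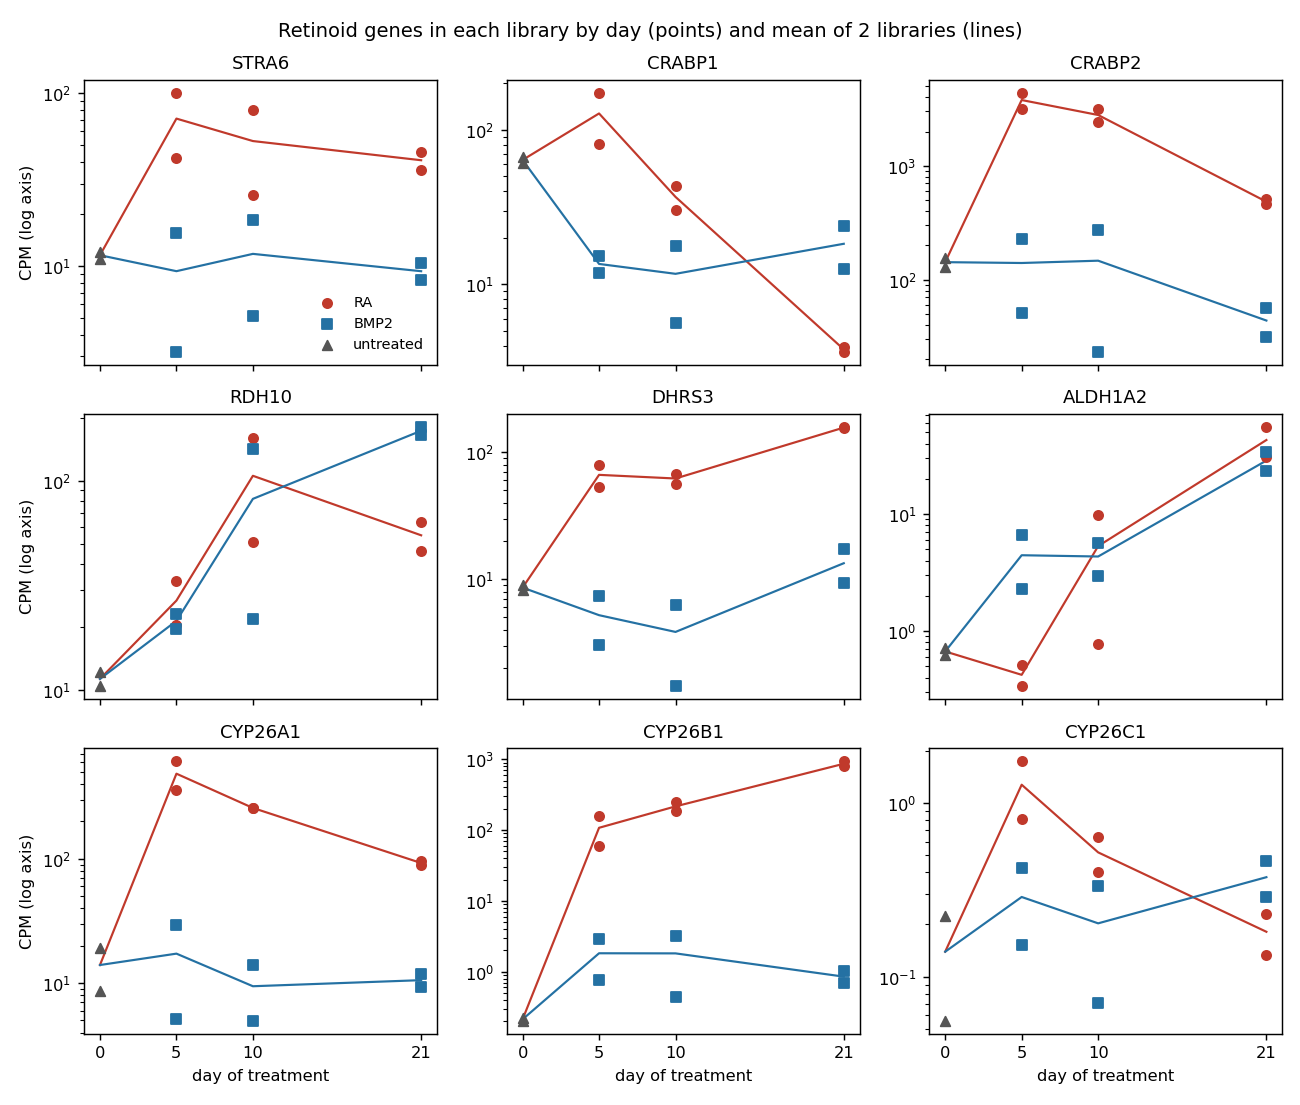
Level of each of the 9 genes in every library, as CPM on a log axis, against the day of treatment. Circles are RA libraries, squares BMP2 libraries and triangles untreated libraries, and lines join the means of the 2 libraries of a group. CYP26B1 lay between 58.8 and 934 CPM in the RA libraries and at or below 3.19 CPM in all others, and CRABP1 was at 3.64 and 3.94 CPM at RA day 21.

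STRA6, the membrane receptor that brings retinol into the cell (ENSG00000137868, chromosome 15), was higher in every RA library than in any BMP2 or untreated library. It had 12.1 and 11 CPM in untreated cells, 41.9 and 100.5 CPM at RA day 5, 79.8 and 25.8 CPM at RA day 10, and 45.7 and 36.1 CPM at RA day 21. In BMP2 libraries it had 3.18 and 15.5 CPM at day 5, 18.4 and 5.12 CPM at day 10, and 10.4 and 8.27 CPM at day 21. The RA libraries did not overlap with the untreated ones, and libraries of the 3 RA days overlapped with each other. The log2 fold changes over untreated cells were 2.62 ± 0.83 (SE), 2.19 ± 0.82 and 1.82 ± 0.81 at RA days 5, 10 and 21, and with adjusted p = 0.083, 0.079 and 0.091 none was called. DESeq2 called all 3 (adjusted p = 0.0074, 0.018 and 0.043). Of 24 alternatives, 7, 9 and 3 called the values of RA days 5, 10 and 21. The RA day 5 value was also called without either of the BMP2 day 10 libraries (adjusted p = 0.038 and 0.037), and the RA day 10 value without any 1 of the BMP2 day 5 or day 10 libraries (0.039 to 0.049). RA over BMP2 gave 2.93 ± 0.84 at day 5 (adjusted p = 0.049), which was called under 12 of 24 alternatives. That call ended without any 1 of the untreated, RA day 5, RA day 21 or BMP2 day 21 libraries or BMP2 day 5 replicate 1, with values of 2.16 to 3.43 (adjusted p = 0.059 to 0.27). At day 10 the RA over BMP2 value of 2.16 (adjusted p = 0.12) became 3.37 (adjusted p = 0.038) without BMP2 day 10 replicate 1. STRA6 shares 29.2% of its span with CCDC33 on the opposite strand, so counts of the pair may be mixed if strand was not used.

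CRABP1, a cytosolic carrier of retinoic acid (ENSG00000166426, chromosome 15), was lower in all BMP2 libraries than in untreated ones. Under RA it was lowest of all at day 21, after higher levels at day 5. It had 61.4 and 66.3 CPM in untreated cells, 81.4 and 174 CPM at RA day 5, 43.3 and 30.3 CPM at RA day 10, and 3.94 and 3.64 CPM at RA day 21. The BMP2 libraries had 11.8 and 15.3 CPM at day 5, 17.8 and 5.59 CPM at day 10, and 24.0 and 12.6 CPM at day 21. Both RA day 5 libraries lay above the untreated ones, both RA day 10 libraries below them, and all BMP2 libraries lay between the RA day 10 and RA day 21 libraries. The log2 fold change over untreated cells was -4.07 ± 0.58 at RA day 21 (adjusted p = 0.00053), a fall by 16.8-fold that was called under all 24 alternatives. At RA days 5 and 10 it was 1.00 ± 0.52 and -0.80 ± 0.52 (adjusted p = 0.27 and 0.29). Under BMP2 it fell by 2.24 ± 0.54, 2.45 ± 0.54 and 1.80 ± 0.53 on the log2 scale at days 5, 10 and 21 (adjusted p = 0.012, 0.0068 and 0.018).

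The BMP2 calls of CRABP1 at days 5 and 21 ended without certain single libraries. Most of those values stayed near the -2.24 and -1.80 of the full fit. The day 5 call ended without untreated replicate 2 (-2.18, adjusted p = 0.056) or without BMP2 day 5 replicate 1 (-2.06, 0.08) or 2 (-2.41, 0.059). The day 21 call ended without untreated replicate 1 (-1.86, 0.052) or 2 (-1.75, 0.067) or without BMP2 day 21 replicate 2 (-1.39, 0.14). The day 10 call held without each of the 14 libraries in turn, with -3.52 (0.0008) without BMP2 day 10 replicate 1, but not on only the 4 libraries compared (-2.42, 0.078).

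Within RA, CRABP1 fell by 5.07 ± 0.61 on the log2 scale at day 21 relative to day 5 (adjusted p = 0.0014). This was called under all 24 alternatives. The same contrast within BMP2 was 0.43 ± 0.52 (adjusted p = 0.59). The difference between these changes, tested after the data were seen, was -5.50 ± 0.78 (adjusted p = 0.015, where 1.64% of all genes were called, 0.705% higher and 0.935% lower). That call ended without either RA day 21 library or either BMP2 day 5 library (-5.72 to -5.32, 0.051 to 0.092). RA over BMP2 was 3.23 ± 0.56 at day 5 (adjusted p = 0.0069), 1.65 ± 0.53 at day 10 (0.074) and -2.27 ± 0.54 at day 21 (0.026), so the side with more CRABP1 changed between days 5 and 21. The day 5 call ended without RA day 5 replicate 2 (2.58, adjusted p = 0.053) or BMP2 day 5 replicate 1 (3.06, 0.059). The day 21 call ended without either RA day 21 library (-2.35, 0.17, and -2.23, 0.16) or BMP2 day 21 replicate 1 (-1.72, 0.12), and on log2(RPKM + 1) (-1.02, 0.098). The day 10 value was 2.72 (0.0057) without BMP2 day 10 replicate 1.

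CRABP2, the carrier that hands retinoic acid to its receptors (ENSG00000143320, chromosome 1), reached the highest level per length of the 9 genes at RA day 5. It had 129.6 and 156 CPM in untreated cells, 4380.4 and 3174 CPM at RA day 5, 3138 and 2445 CPM at RA day 10, and 507 and 462 CPM at RA day 21. In BMP2 libraries it had 51.2 and 229.6 CPM at day 5, 271 and 23.2 CPM at day 10, and 31.4 and 56.4 CPM at day 21. The RA libraries fell into the order of the days without overlap and all lay above every other library, whereas the BMP2 day 5 and day 10 libraries lay on both sides of the untreated ones. Relative to untreated cells the log2 fold change was 4.72 ± 1.04 at RA day 5 (adjusted p = 0.023) and 4.29 ± 1.02 at RA day 10 (0.014). At RA day 21 it was 1.76 ± 0.92 (0.14), which was called without either BMP2 day 10 library (1.76, 0.022 each). The RA day 5 call ended without untreated replicate 1 (4.60, 0.14) or 2 (4.87, 0.17) or RA day 5 replicate 1 (4.47, 0.089). The RA day 10 call ended without untreated replicate 1 (4.16, 0.095) or 2 (4.43, 0.098) or RA day 10 replicate 1 (4.12, 0.053).

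RA over BMP2 for CRABP2 was 4.75 ± 1.04 at day 5 (adjusted p = 0.018), 4.25 ± 1.02 at day 10 (0.028) and 3.46 ± 0.98 at day 21 (0.047). The day 5 call ended without RA day 5 replicate 2 (4.96, 0.063) or BMP2 day 5 replicate 1 (4.04, 0.098), and the day 10 call without either RA day 10 library (4.03, 0.088, and 4.39, 0.074). The day 21 call ended without any 1 of the untreated, RA or BMP2 day 21 libraries (3.10 to 3.92, adjusted p = 0.065 to 0.2). With the replicate block it was 3.45 (0.066). Within RA, the level at day 21 was lower than at day 5 by -2.96 ± 0.96 (log2, adjusted p = 0.042), a call that ended without any 1 of the libraries except those of BMP2 days 5 and 10 (-3.20 to -2.71, 0.054 to 0.19). With the replicate block that value was -2.96 (0.058).

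Under BMP2, CRABP2 gave -0.03 ± 0.89, 0.04 ± 0.89 and -1.70 ± 0.92 over untreated cells at days 5, 10 and 21 (adjusted p = 0.99, 0.98 and 0.15). The day 10 value became -2.63 (0.019) without BMP2 day 10 replicate 1, and the day 21 value was called without either BMP2 day 10 library (-1.70, 0.025 each). With BMP2 day 5 replicate 2 and BMP2 day 10 replicate 1 both left out, the 3 values were -1.45 (0.016), -2.60 (0.00079) and -1.69 (0.0009). AL590666.4, an antisense gene that is not in the count table, covers 82.9% of the CRABP2 span, so its reads could be counted as CRABP2 if strand was not used.

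The 2 carriers moved apart under RA. The ratio of CRABP2 to CRABP1 in CPM was 2.11 and 2.36 in untreated libraries, 53.8 and 18.3 at RA day 5, 72.5 and 80.8 at RA day 10, and 128 and 127 at RA day 21. In BMP2 libraries it was 4.35 and 15.0 at BMP2 day 5, 15.2 and 4.14 at BMP2 day 10, and 1.31 and 4.49 at BMP2 day 21. The ratio was higher in every RA library than in any other library, and at its highest on day 21, when both carriers were below their RA day 5 levels.

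**Figure D2:**
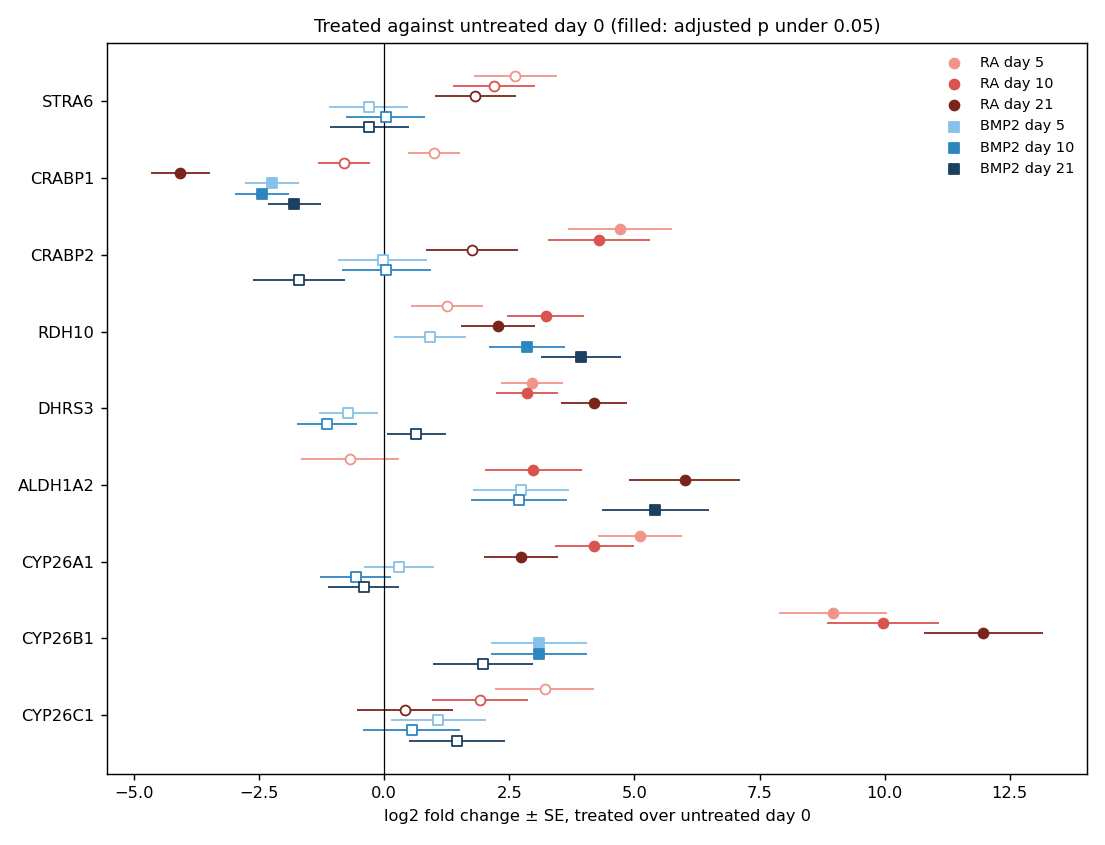
Log2 fold change of each gene over untreated day 0 with its SE, from edgeR, for RA (circles) and BMP2 (squares) at days 5, 10 and 21. Filled points have an adjusted p under 0.05. CYP26B1 lies farthest to the right, at 8.97, 9.97 and 11.97 for RA days 5, 10 and 21, and CRABP1 at RA day 21 lies farthest to the left, at -4.07.

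RDH10, the retinol dehydrogenase of the first oxidation step (ENSG00000121039, chromosome 8), rose under both agents. It had 12.2 and 10.4 CPM in untreated cells, 33.1 and 20.4 CPM at RA day 5, 160.1 and 51.0 CPM at RA day 10, and 63.4 and 46.3 CPM at RA day 21. In BMP2 libraries it had 19.6 and 23.2 CPM at day 5, 21.8 and 142 CPM at day 10, and 166 and 180.4 CPM at day 21. Every treated library lay above the untreated ones, and the highest group mean was BMP2 day 21. The log2 fold change over untreated cells was 3.94 ± 0.80 at BMP2 day 21 (adjusted p = 0.0028), called under all 24 alternatives. It was 3.23 ± 0.77 at RA day 10 (0.015), 2.28 ± 0.74 at RA day 21 (0.030) and 2.86 ± 0.76 at BMP2 day 10 (0.016). At day 5 it was 1.25 ± 0.72 with RA and 0.92 ± 0.72 with BMP2 (adjusted p = 0.33 and 0.36).

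The RA and BMP2 day 10 calls of RDH10 each leaned on 1 high library. Without RA day 10 replicate 1 the RA day 10 value was 2.21 (adjusted p = 0.10), and without BMP2 day 10 replicate 2 the BMP2 day 10 value was 0.95 (0.2). Both calls also ended without untreated replicate 1 (3.34, 0.08, for RA and 2.98, 0.079, for BMP2) or 2 (3.12, 0.11, and 2.75, 0.10). The RA day 21 call ended without either untreated library or either RA day 21 library (2.03 to 2.48, 0.061 to 0.15). RA and BMP2 did not differ by the test on any day, at 0.32 ± 0.71, 0.37 ± 0.71 and -1.66 ± 0.72 on days 5, 10 and 21 (adjusted p = 0.81, 0.79 and 0.16). The day 21 value was called without either BMP2 day 10 library (-1.65, 0.024 each), and the day 10 value without BMP2 day 10 replicate 2 (2.28, 0.038). Within BMP2, RDH10 was higher at day 21 than at day 5 by 3.02 ± 0.76 (adjusted p = 0.030), the only 1 of the 9 genes called there, where 7.77% of all genes rose. That call ended without any 1 of the BMP2 day 5, BMP2 day 21 or RA day 21 libraries (2.90 to 3.12, 0.051 to 0.15). Other genes cover 93.7% of the RDH10 span, chiefly the antisense RDH10-AS1, so reads may be mixed if strand was not used.

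DHRS3, which returns retinaldehyde to retinol (ENSG00000162496, chromosome 1), rose on every RA day. It had 8.94 and 8.24 CPM in untreated cells, 80.0 and 52.8 CPM at RA day 5, 68.0 and 56.3 CPM at RA day 10, and 155 and 158 CPM at RA day 21. In BMP2 libraries it had 3.06 and 7.36 CPM at day 5, 6.26 and 1.43 CPM at day 10, and 9.34 and 17.4 CPM at day 21. The RA day 21 libraries were the highest, those of RA days 5 and 10 overlapped, and the BMP2 libraries lay below untreated at days 5 and 10 and above it at day 21. Over untreated cells the log2 fold change was 2.95 ± 0.62, 2.85 ± 0.62 and 4.19 ± 0.66 at RA days 5, 10 and 21 (adjusted p = 0.019, 0.0097 and 0.00083). The RA day 21 call held under all 24 alternatives. The RA day 5 call ended without untreated replicate 1 (3.01, 0.11) or 2 (2.89, 0.16) or RA day 5 replicate 1 (2.62, 0.10), and the RA day 10 call without untreated replicate 1 (2.92, 0.061) or 2 (2.80, 0.084).

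Under BMP2 DHRS3 had log2 fold changes over untreated cells of -0.72 ± 0.59, -1.15 ± 0.60 and 0.64 ± 0.59 (adjusted p = 0.39, 0.16 and 0.39). Without BMP2 day 10 replicate 1 the day 10 value was -2.59 (0.0054). RA over BMP2 was 3.67 ± 0.64, 4.01 ± 0.66 and 3.55 ± 0.64 at days 5, 10 and 21 (adjusted p = 0.0073, 0.0067 and 0.0091). The day 5 call ended without BMP2 day 5 replicate 1 (3.17, 0.056). The day 21 call ended without RA day 21 replicate 1 (3.55, 0.055) or 2 (3.52, 0.051) or BMP2 day 21 replicate 1 (3.17, 0.061). Day 21 over day 5 was 1.24 ± 0.58 within RA and 1.36 ± 0.60 within BMP2 (adjusted p = 0.14 each), and both were called without either BMP2 day 10 library (adjusted p = 0.029 to 0.030). The difference between these changes was -0.12 ± 0.82 (adjusted p = 0.97).

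ALDH1A2, the aldehyde dehydrogenase that makes retinoic acid (ENSG00000128918, chromosome 15), was highest at day 21 under both agents. It had 0.629 and 0.71 CPM in untreated cells, 0.509 and 0.336 CPM at RA day 5, 9.88 and 0.775 CPM at RA day 10, and 55.5 and 30.5 CPM at RA day 21. Under BMP2 it had 2.30 and 6.60 CPM at day 5, 5.71 and 2.97 CPM at day 10, and 34.0 and 23.4 CPM at day 21. Every BMP2 library, from day 5 on, lay above the untreated ones. The day 21 libraries of the 2 agents overlapped and were the highest, the RA day 5 libraries were the lowest, and the RA day 10 libraries differed by 12.7-fold. Relative to untreated cells the log2 fold change was 6.0 ± 1.10 at RA day 21 (adjusted p = 0.0018) and 5.42 ± 1.07 at BMP2 day 21 (0.0025). Both were called under all 22 alternatives that tested the gene. RA over BMP2 at day 21 was 0.58 ± 0.87 (0.69).

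On the earlier days the ALDH1A2 calls were fragile. At RA day 10 the value of 2.98 ± 0.97 (adjusted p = 0.049) became 0.24 (0.87) without RA day 10 replicate 1. Leaving out any 1 library of the untreated, RA day 5, RA day 21, BMP2 day 5 or BMP2 day 21 groups also ended that call (2.90 to 3.07, 0.051 to 0.2), as did RLE scaling (2.96, 0.051) and the replicate block (2.67, 0.078). At RA day 5 the value was -0.68 ± 0.98 (0.73). At BMP2 days 5 and 10 it was 2.73 ± 0.96 and 2.69 ± 0.96 (adjusted p = 0.058 and 0.052). Both were called without either RA day 10 library (0.0069 to 0.0085), and the day 5 value also without either BMP2 day 10 library (0.047 each). RA over BMP2 at day 5 was -3.41 ± 1.01 (0.054), called without any 1 of the RA or BMP2 day 10 libraries (-3.42 to -3.41, 0.0099 to 0.037). At day 10 it was 0.29 ± 0.88 (0.87). Day 21 over day 5 was 6.68 ± 1.14 within RA (adjusted p = 0.0035, called under all 22 alternatives) and 2.69 ± 0.93 within BMP2 (0.075, called without either RA day 10 library at 0.024). The difference between these changes was 3.99 ± 1.32 (adjusted p = 0.14). The ALDH1A2 span in GENCODE v29 is 544443 bases, and the protein-coding genes AQP9 and LIPC lie on its opposite strand.

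CYP26A1, the enzyme known for its quick induction by retinoic acid (ENSG00000095596, chromosome 10), peaked at RA day 5 and then declined. It had 8.66 and 19.3 CPM in untreated cells, 609 and 361 CPM at RA day 5, 255 and 259 CPM at RA day 10, and 89.2 and 96.0 CPM at RA day 21. Its BMP2 libraries had 29.4 and 5.13 CPM at day 5, 4.97 and 13.9 CPM at day 10, and 9.32 and 11.8 CPM at day 21. The 3 RA days did not overlap with each other, every RA library lay above every other library, and the BMP2 libraries of each day overlapped with the untreated ones. The log2 fold change over untreated cells was 5.11 ± 0.83, 4.20 ± 0.79 and 2.73 ± 0.74 at RA days 5, 10 and 21 (adjusted p = 0.0058, 0.0052 and 0.014). The day 10 call held under all 24 alternatives, and the other calls ended only without untreated replicate 1, at 4.65 (0.06) for day 5 and 2.27 (0.10) for day 21.

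Under BMP2 CYP26A1 gave 0.30 ± 0.70, -0.57 ± 0.71 and -0.41 ± 0.71 over untreated cells (adjusted p = 0.78, 0.56 and 0.66). RA over BMP2 was 4.81 ± 0.82, 4.77 ± 0.82 and 3.13 ± 0.76 at days 5, 10 and 21 (adjusted p = 0.0064, 0.0079 and 0.028). The day 21 call ended without any 1 of the 4 day 21 libraries (2.98 to 3.29, 0.11 to 0.14). Within RA, the level at day 21 was lower than at day 5 by -2.39 ± 0.73 (log2, adjusted p = 0.035), with 14.8% of all genes lower. That call ended without any 1 of the RA day 5 or day 21 libraries (-2.74 to -1.96, 0.063 to 0.16). Of the CYP26A1 span, 89.4% lies within AL358613.3, a transcript on the same strand that is not in the count table. It also covers 67.5% of CYP26C1, so its reads could be counted as either gene. CYP26A1 and CYP26C1 do not overlap each other.

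CYP26B1, the second of the hydroxylases (ENSG00000003137, chromosome 2), had the largest fold changes of the 9 genes and rose further with each RA day. It had 0.203 and 0.223 CPM in untreated cells, 157 and 58.8 CPM at RA day 5, 247 and 186 CPM at RA day 10, and 934 and 796 CPM at RA day 21. BMP2 libraries held 0.761 and 2.89 CPM at day 5, 3.19 and 0.447 CPM at day 10, and 0.698 and 1.01 CPM at day 21. The 3 RA days did not overlap, and the BMP2 libraries all lay above the untreated ones but far below those of RA. Relative to untreated cells the log2 fold change was 8.97 ± 1.08, 9.97 ± 1.12 and 11.97 ± 1.19 at RA days 5, 10 and 21 (adjusted p = 0.0013, 0.00051 and 0.00011). Each of these was called under all 24 alternatives. RA over BMP2 was 5.87 ± 0.91, 6.87 ± 0.95 and 9.98 ± 1.08 at days 5, 10 and 21 (adjusted p = 0.0042, 0.0037 and 0.0012), and no left-out library ended these calls. No other annotated gene overlaps CYP26B1.

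At BMP2 days 5 and 10 CYP26B1 was also called over untreated cells, at 3.09 ± 0.96 and 3.10 ± 0.96 (adjusted p = 0.036 and 0.030), from levels of 3.19 CPM or less. The highest values came from the pair of libraries that resemble each other. Without BMP2 day 5 replicate 2 the day 5 value was 1.86 (0.27), and without BMP2 day 10 replicate 1 the day 10 value was 1.05 (0.47). Either call also ended without either untreated library (3.04 and 3.17 for each day, 0.13 to 0.16), and the day 5 call without either RA day 21 library or BMP2 day 21 replicate 1 (3.09 to 3.13, 0.050 each). On log2(RPKM + 1) both values were 0.11 (0.81 and 0.8). At BMP2 day 21 the value was 1.98 ± 1.00 (0.13). Within RA, day 21 over day 5 was 3.0 ± 0.78 (adjusted p = 0.018), where 13.9% of all genes rose. This call ended without RA day 5 replicate 2 (2.43, 0.13) or either RA day 21 library (2.85, 0.075, and 3.07, 0.063). The same contrast within BMP2 was -1.11 ± 0.83 (0.38), and the difference between the changes was 4.11 ± 1.13 (adjusted p = 0.093).

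The leading CYP26 enzyme under RA thus changed between days 10 and 21. Per length, on the authors' RPKM over the whole gene span, CYP26B1 stood at 0.0607 and 0.0383 of CYP26A1 at RA day 5, 0.227 and 0.169 at RA day 10, and 2.46 and 1.95 at RA day 21. On CPM per kilobase of exons the ratios were 0.153 and 0.0965, 0.572 and 0.427, and 6.2 and 4.91 at RA days 5, 10 and 21. The ratio was below 1 in both libraries of RA days 5 and 10 and above 1 in both of RA day 21 on either scale. It was below 1 in all untreated and BMP2 libraries too, at 0.0139 and 0.00684 in untreated cells on the exonic scale.

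CYP26C1, the third hydroxylase (ENSG00000187553, chromosome 10), stayed at or below 1.74 CPM in all libraries. It had 0.223 and 0.0557 CPM in untreated cells, 0.814 and 1.74 CPM at RA day 5, 0.400 and 0.641 CPM at RA day 10, and 0.134 and 0.229 CPM at RA day 21. In BMP2 libraries it ran from 0.071 to 0.462 CPM. The RA day 5 libraries were the highest and did not overlap with any other group. The log2 fold change at RA day 5 over untreated cells was 3.21 ± 0.99 (adjusted p = 0.076), called without either BMP2 day 10 library (3.22, 0.039 and 0.040) and by DESeq2 (3.20, 0.0089). At RA day 21 relative to RA day 5 it was -2.80 ± 0.96 (0.052), likewise called without either BMP2 day 10 library (-2.79, 0.029 and 0.030). No other comparison of CYP26C1 was called under any alternative run.

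With BMP2 day 5 replicate 2 and the BMP2 day 10 library most like it both left out, further values of the 9 genes changed. This choice was made after the data were seen. BMP2 days 5 and 10 then had 1 library each, so comparisons with them are given here as values only. The SEs of other comparisons fell too. For RA day 5 over untreated cells, the SE of CRABP2 went from 1.04 to 0.32 and that of STRA6 from 0.83 to 0.54. Their values stayed near, at 4.72 and 4.75 for CRABP2 and 2.62 and 2.65 for STRA6. Over untreated cells, DHRS3 was lower at BMP2 day 5 (-1.45) and BMP2 day 10 (-2.56). CYP26B1 was at 1.85 and 1.08 on those days, and it was called at BMP2 day 21 (1.99, adjusted p = 0.023). CRABP1 and RDH10 were at -3.49 and 3.68 at BMP2 day 10. STRA6 was called at RA days 5, 10 and 21 (2.65, 2.23 and 1.82, adjusted p = 0.012, 0.012 and 0.018), CRABP2 at RA day 21 (1.76, 0.00081) and CYP26C1 at RA day 5 (3.25, 0.032).

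In the same fit STRA6 over BMP2 was 4.48, 3.38 and 2.11 with RA at days 5, 10 and 21 (adjusted p = 0.022 at day 21). CRABP1 was higher with RA at day 10 (2.73), and RDH10 was lower with RA at day 21 (-1.67, 0.030). CRABP2 was higher with RA by 6.20 at day 5 and 6.93 at day 10, and DHRS3 by 4.43 and 5.45. CYP26B1 was higher with RA by 7.14 at day 5 and 8.92 at day 10, and CYP26A1 by 4.03 at day 5. Within BMP2, day 21 relative to day 5 was -1.50 for CYP26A1 and 2.10 for DHRS3. Within RA it was called for DHRS3 (1.21, 0.0095) and CYP26C1 (-2.83, 0.024). The change between days 5 and 21 differed between the agents by -2.75 for CRABP2.

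**Figure D3:**
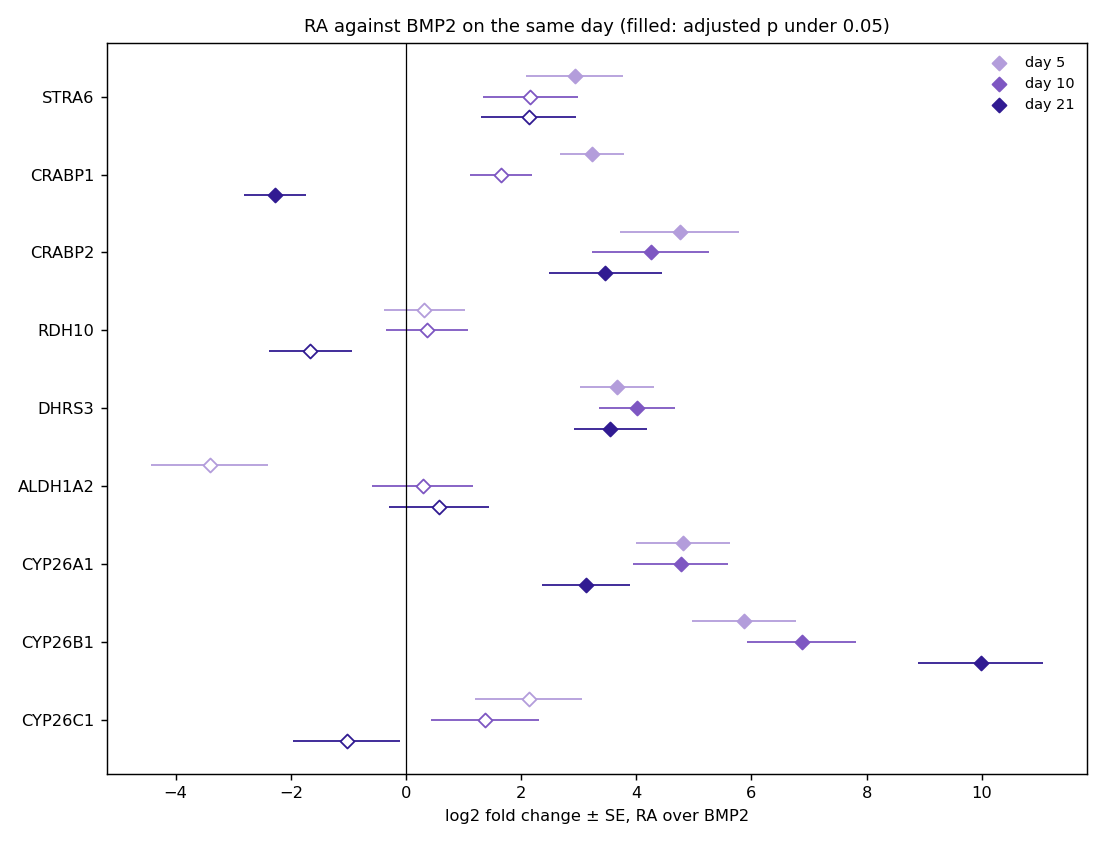
Log2 fold change of RA over BMP2 on the same day with its SE, from edgeR, for each gene at days 5, 10 and 21. Filled points have an adjusted p under 0.05. CYP26B1 rises over the days to 9.98, while CRABP1 lies at 3.23 at day 5 and -2.27 at day 21, the only called value below 0.

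**Figure D4:**
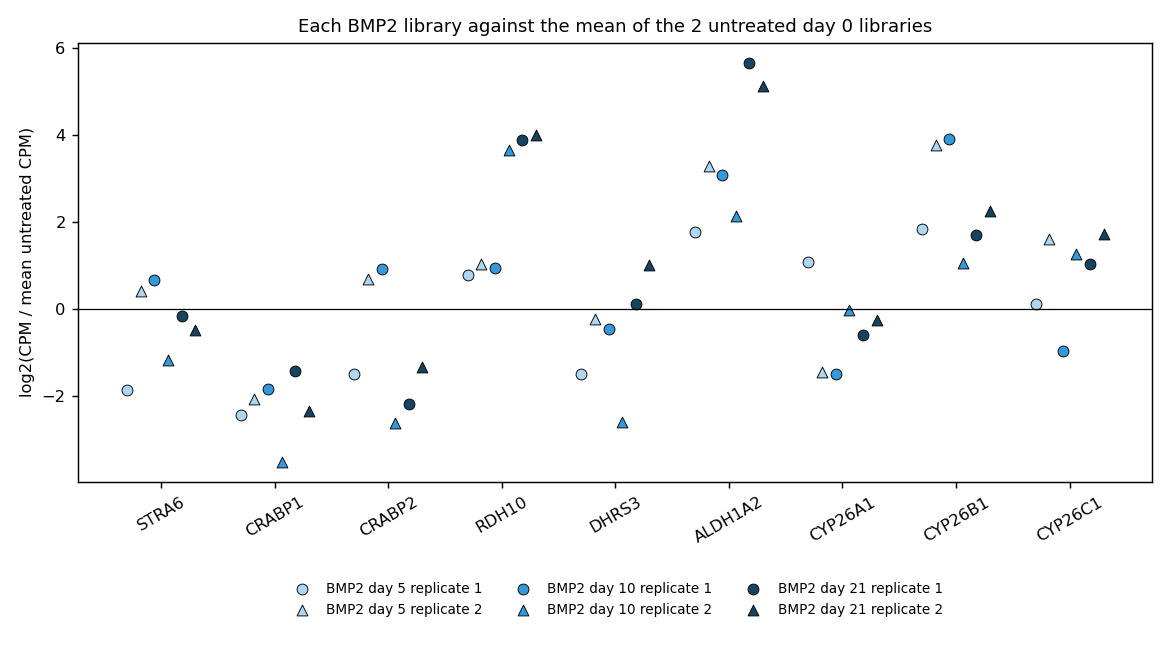
Each BMP2 library against the mean of the untreated libraries, as log2 of the CPM ratio, for the 9 genes. Light to dark marks days 5, 10 and 21, and circles and triangles stand for replicates 1 and 2. The triangles of day 5 and the circles of day 10 lie close together for every gene but CYP26C1, whereas the replicates of day 10 lie apart.

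Levels were set against each other per length. CRABP2 ranked first of the 9 in each of the 7 groups on both the authors' RPKM and CPM per kilobase of exons. On the exonic scale it stood at 118 and 142 in untreated cells, 3982 and 2886 at RA day 5, 2853 and 2223 at RA day 10, and 460.5 and 419.7 at RA day 21. The next by mean at RA day 5 was CYP26A1, at 205 and 121 CPM per kilobase of exons, overlapping with CRABP1 at 81.9 and 175. At RA day 21 the next was CYP26B1, at 186 and 159. In BMP2 day 21 libraries RDH10 was at 31.1 and 33.9, overlapping with CRABP2 at 28.6 and 51.3, so the order of this pair was not set beyond the spread of the libraries.

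Of 31 other genes of retinoid synthesis, transport and reception, 28 were tested. They too were listed with earlier results known. Members of this list are described in the comparisons where they were among the 3 called genes of largest fold change. For LRP2 and LRAT further comparisons are added, and the plot of the other pathway genes shows others. Against untreated cells, 5 rose and none fell at RA day 5, 8 rose and 2 fell at RA day 10, and 10 rose and 4 fell at RA day 21. That is 17.9%, 35.7% and 50% of the 28 tested called, against 8.31%, 24% and 44.6% of all genes. Under BMP2, 4 rose and 4 fell at day 5, 7 rose and 3 fell at day 10, and 9 rose and 3 fell at day 21. Those shares of 28.6%, 35.7% and 42.9% are near the 29.2%, 36.3% and 47.1% of all genes. RA over BMP2 gave 5 higher and 1 lower at day 5, 4 higher and 2 lower at day 10, and 4 higher and 1 lower at day 21, or 21.4%, 21.4% and 17.9% of the 28 against 12.2%, 10.8% and 12.1% of all genes. Their median log2 fold change lay between 0.00 and 0.63 in the comparisons with untreated cells, where that of the 9 genes lay between 0.04 and 2.98.

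RARB, a retinoic acid receptor that is itself a receptor target, rose in all 6 comparisons with untreated cells. It had 0.446 and 1.13 CPM in untreated cells, 44.4 and 43.6 CPM at RA day 5, 33.3 and 30.8 CPM at RA day 10, and 54.5 and 57.3 CPM at RA day 21. With BMP2 it had 41.5 and 39.2 CPM at day 5, 43.1 and 13.0 CPM at day 10, and 27.0 and 19.2 CPM at day 21. Unlike CYP26A1, RARB was higher in both BMP2 day 5 libraries than in both RA day 10 libraries. Its log2 fold change was 5.78 ± 0.60, 5.32 ± 0.59 and 6.12 ± 0.61 at RA days 5, 10 and 21 (adjusted p = 0.00066, 0.0005 and 0.00011). At BMP2 days 5, 10 and 21 it was 5.65 ± 0.60, 5.12 ± 0.59 and 4.84 ± 0.58 (adjusted p = 0.0003, 0.00037 and 0.0002). With the alike BMP2 libraries both left out, the BMP2 day 10 value was 4.02 (0.0001), and on only the 4 libraries compared it was 5.17 (0.051). RARB was called in none of the RA against BMP2 comparisons.

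LRP2, an endocytic receptor that can take up retinol-binding protein, rose at RA day 5 (4.38 ± 1.12, adjusted p = 0.041) and at BMP2 day 21 (5.92 ± 1.21, 0.0029). It was also called higher at RA days 10 and 21 (4.11 ± 1.11, 0.024, and 4.5 ± 1.13, 0.0094). The same held at BMP2 day 10 (3.88 ± 1.1, 0.021), where its replicates had 7.82 and 141 CPM. At BMP2 day 5 it was not called (1.37 ± 1.01, 0.33). Its RA day 5 call ended without any 1 of the untreated, RA day 5, RA day 21, BMP2 day 5 or BMP2 day 21 libraries (4.32 to 4.44, 0.056 to 0.24), as well as with the replicate block (4.39, 0.055) and on log2(RPKM + 1) (0.51, 0.2).

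The aldehyde dehydrogenases that share the step of ALDH1A2 went opposite ways at RA day 21. ALDH1A1 had 94.2 and 109 CPM there, against 0.487 and 0.223 CPM in untreated cells (8.19 ± 1.01, adjusted p = 0.00026). It was also higher than with BMP2, by 4.31 ± 0.90 at day 10 and 5.84 ± 0.90 at day 21 (adjusted p = 0.017 and 0.0047). These calls ended without RA day 10 replicate 2 (3.0, 0.098) and without BMP2 day 21 replicate 2 (5.51, 0.051). The day 10 value was 7.48 (0.0048) with the alike BMP2 libraries both left out and 0.04 (0.74) on log2(RPKM + 1). ALDH1A3 had 3 counts in the 2 RA day 21 libraries together, against 1204 in the untreated ones. The untreated over RA day 21 ratio of its CPM was 468 (95% exact interval 159.6 to 2270.3), and the BMP2 day 21 over RA day 21 ratio was 409 (139.5 to 1988). These intervals cover counting error only. They take every count as independent, and are too narrow if read pairs were counted as 2 reads.

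ALDH1A3 was also lower than in untreated cells at RA day 10 (-5.68 ± 1.10, adjusted p = 0.0058), BMP2 day 5 (-4.25 ± 1.01, 0.012) and BMP2 day 10 (-4.05 ± 1.00, 0.011). Those calls ended without RA day 10 replicate 1 (-5.57, 0.055), without untreated replicate 2 (-3.86, 0.057) or BMP2 day 5 replicate 1 (-3.54, 0.069), and without untreated replicate 2 (-3.66, 0.053). At RA day 21 its fitted changes were -8.68 ± 1.33 over untreated cells and -8.56 ± 1.32 over BMP2 (adjusted p = 0.00072 and 0.0048), and the second call ended without RA day 21 replicate 1 (-7.69, 0.059). LRAT, which esterifies retinol for storage, had 81.6 and 151 CPM in untreated cells. It was lower at RA day 21, at 4.93 and 5.55 CPM (-4.47 ± 1.14, adjusted p = 0.01). At BMP2 day 5 it had 11.9 and 2.81 CPM (-3.99 ± 1.11, 0.023), and the value was -3.25 with the alike BMP2 libraries both left out. That call ended without untreated replicate 2 (-3.48, 0.096) or BMP2 day 5 replicate 2 (-3.25, 0.14).

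The remaining named genes of the list had low counts. DHRS9, a retinol dehydrogenase, had 3.33 and 2.92 CPM at BMP2 day 21 and no count in untreated cells, at least 126-fold higher against a floor of 3 counts over the group (adjusted p = 0.026). Its call ended without any 1 of these 4 libraries (0.066 to 0.10) and with DESeq2 (0.13). SDR16C5, another retinol dehydrogenase, had no count at RA day 5, at least 16.2-fold lower than the 0.533 and 0.314 CPM at BMP2 day 5 (adjusted p = 0.037). It was higher at BMP2 day 10 than in untreated cells (4.56 ± 1.29, 0.023) and lower at RA day 10 than at BMP2 day 10 (-4.95 ± 1.32, 0.045). Without BMP2 day 10 replicate 2 those values were 2.45 (0.18) and -2.84 (0.20), and without RA day 10 replicate 2 the second was -9.85 (0.055). The SDR16C5 call at day 5 ended without any 1 of the libraries except those of RA and BMP2 day 10 (0.056 to 0.2). The RA day 10 over BMP2 day 10 call ended without any 1 of the untreated, RA day 21, BMP2 day 5 or BMP2 day 21 libraries, RA day 10 replicate 1 or RA day 5 replicate 1 (-4.95 to -4.04, 0.050 to 0.15), and with the replicate block (-4.91, 0.058), and the BMP2 day 10 call without either untreated library (4.54 and 4.58, 0.12 each). BCO1, which splits carotene into retinaldehyde, had 0.651 and 4.52 CPM at RA day 5, against 0.171 and 0.0629 CPM at BMP2 day 5 (4.47 ± 0.95, 0.016), and this call ended without RA day 5 replicate 2 (2.47, 0.13) or either BMP2 day 5 library (5.32, 0.062, and 3.90, 0.11). With the alike BMP2 libraries both left out it also ended (3.90, 0.067), while SDR16C5 at BMP2 day 10 was 5.41 (0.0064) and at RA day 10 over BMP2 day 10 was -5.75 (0.0095), and ALDH1A3 at BMP2 days 5 and 10 was -5.74 (0.0066) and -5.24 (0.0054).

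**Figure D5:**
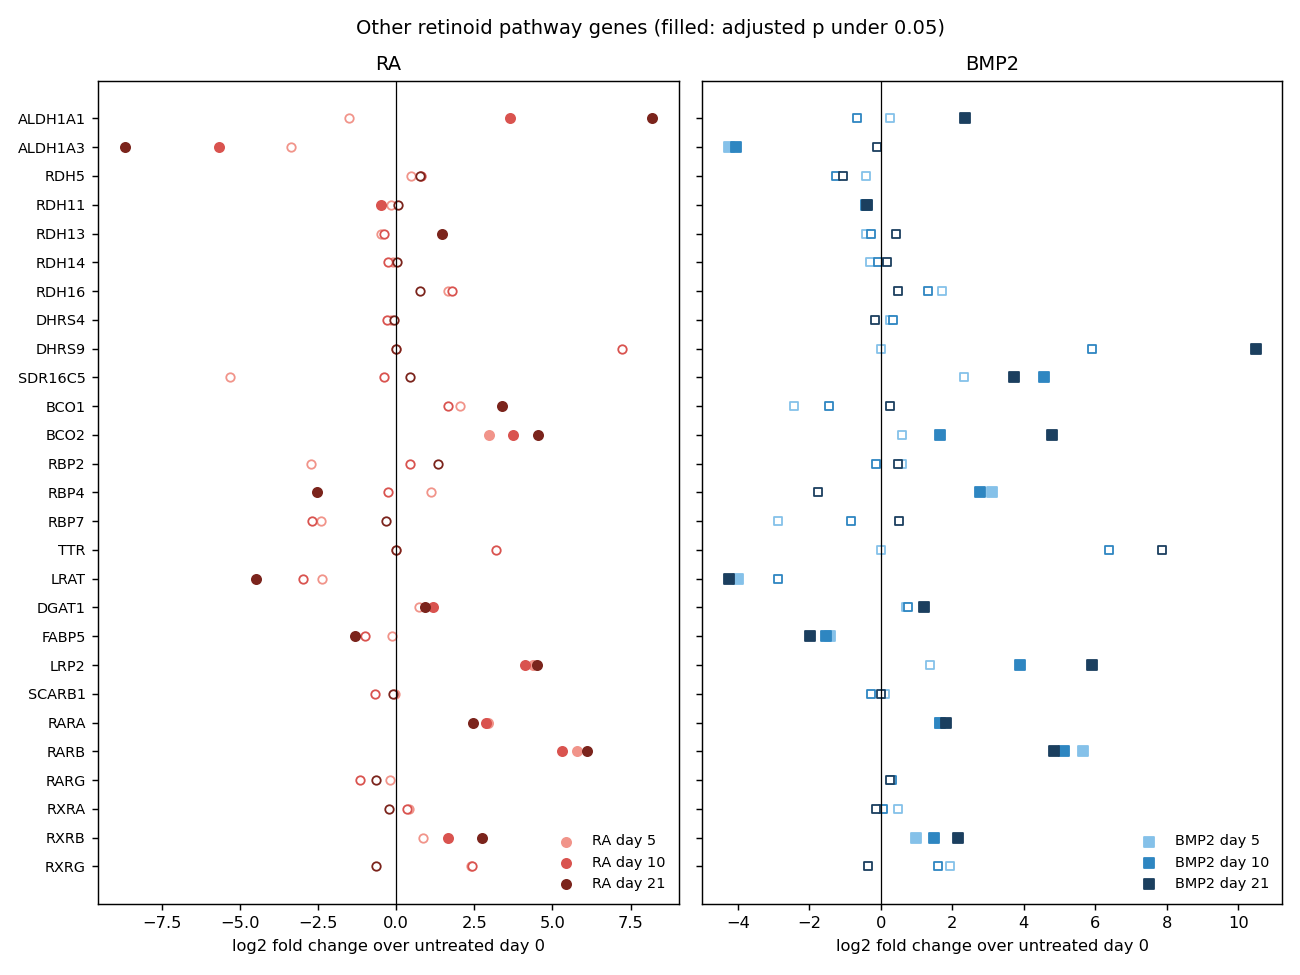
Log2 fold change over untreated day 0 of other retinoid pathway genes that were tested, for RA days 5, 10 and 21 (left) and BMP2 days 5, 10 and 21 (right), from edgeR. Filled points have an adjusted p under 0.05. RARB is filled at all 6 points between 4.84 and 6.12.

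The genes most like each member were found by Pearson correlation of log2(CPM + 0.5) over the 14 libraries, among tested genes with a mean of at least 5 CPM and no overlapping span. These correlations rest on 14 libraries in 7 groups and on shared depth, and are given as a description. For CYP26B1 they were the homeobox genes HOXB3 (0.988), HOXB8 (0.982) and HOXB4 (0.978), and HOXB3 averaged 61.6, 172 and 210.3 CPM at RA days 5, 10 and 21. For CYP26A1 they were CCDC85C (0.971), LIN52 (0.959) and EXOC6 (0.949), for CRABP2 CDH20 (0.98), FZD10-AS1 (0.977) and KANSL3 (0.972), and for CRABP1 ZNF670-ZNF695 (0.967), AKR1B1 (0.938) and EPB41 (0.938). For DHRS3 they were NUB1 (0.952), the HOXA cluster antisense RNA HOXA-AS2 (0.948) and DPY19L2P2 (0.936), and for ALDH1A2 CUTALP (0.948), CDK15 (0.946) and EDNRA (0.942). For RDH10 they were TSPAN11 (0.948), SMAP2 (0.934) and ADAM12 (0.932), for STRA6 GPR162 (0.964), SUOX (0.937) and SIGIRR (0.935), and for the low CYP26C1 APOBEC3G (0.87), DHX32 (0.848) and SPRED2 (0.829).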

How the data were processed

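RNA from 14 NT2 libraries was sequenced, and 2 tables of the whole series were deposited by the authors: raw read counts per Ensembl gene and RPKM values. Per the submitters' processing notes, STAR, featureCounts and DESeq2 were used with the hg19 build, and their versions and strand setting are not given in the sources used here. The deposited RPKM matched the whole gene span within 1% for 89% of 5814 genes, so intronic length enters it and introns may have been counted. The counts were even in 66.0 to 73.5% of values from 1 to 19, so read pairs may have been counted as 2 reads, and precision is lower than the totals of 45773278 to 75754396 imply.

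Groups came from the labels. Symbols came from a gene name list for 25214 IDs and from GENCODE v29 for the other 738. Counts were filtered with edgeR 4.0.16 (filterByExpr, minimum count 10), scaled by TMM (factors 0.918 to 1.15) and fitted with 1 mean per group over all 14 libraries by the quasi-likelihood test (7 residual and 3.08 prior degrees of freedom, biological coefficient of variation 0.368), in R 4.3.3. The 11 comparisons were each treatment day against day 0, RA against BMP2 on each day, and day 21 against day 5 within each agent. The method was also run on counts simulated from its own fitted dispersions, which cannot show how well it does on these libraries. The alternatives were RLE scaling, no filter, a filter of 1 CPM in 2 libraries, a replicate block, DESeq2 1.42.0, fits on only the 4 libraries compared, limma 3.58.1 on log2(RPKM + 1) and log2(RPKM + 0.1) for genes of at least 0.5 RPKM in 2 libraries, and leaving out each library or both BMP2 day 10 libraries. Leaving out BMP2 day 5 replicate 2 and BMP2 day 10 replicate 1 together, and the test of the difference between the changes of both agents, were added after seeing the data. The 9 genes and all lists were chosen with earlier results of these data known. All 9 are named. Of the other pathway genes, the 3 called genes with the largest absolute fold change in each comparison with day 0 and between the agents are named, except for 1 item that is not reported here. For each member the 3 most correlated genes are named. Tables were handled in Python 3.11.15 with pandas 2.3.3 and NumPy 2.4.6, and plots made with matplotlib 3.10.9.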

Additional observations from a re-analysis of the deposited data

Results flagged for a closer look

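CRABP1, the retinoic acid carrier, changed differently between days 5 and 21 under the 2 agents. Its log2 change at day 21 relative to day 5 was -5.07 ± 0.61 (SE) with RA and 0.43 ± 0.52 with BMP2. The difference between these changes was -5.50 ± 0.78 on the log2 scale (adjusted p = 0.015, edgeR's quasi-likelihood test), one of 314 genes called in that test of 19142 (1.64%). Both RA day 21 libraries lay below both RA day 5 libraries, at 3.94 and 3.64 CPM against 81.4 and 174 CPM, while the BMP2 day 21 libraries, at 24.0 and 12.6 CPM, overlapped with the BMP2 day 5 libraries at 11.8 and 15.3 CPM. The call ended without RA day 21 replicate 1 (-5.57, adjusted p = 0.091), RA day 21 replicate 2 (-5.46, 0.092), BMP2 day 5 replicate 1 (-5.32, 0.066) or BMP2 day 5 replicate 2 (-5.72, 0.051). Over all alternatives the value ran from -5.95 to -3.63, with the smallest size on log2(RPKM + 1). The cause was not tested.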

How the results depend on the processing

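Of the values of the 9 genes under all alternatives, 2002 kept their direction and side of the threshold, 55 changed sign with no call before or after (adjusted p of at least 0.1), 133 lost a call, 111 gained one and 2 reversed, from no call to a call. The reversed value was CRABP2 at BMP2 day 10 over day 0, at -2.63 without BMP2 day 10 replicate 1 and -2.60 with BMP2 day 5 replicate 2 and BMP2 day 10 replicate 1 both left out, and leaving out 1 library at a time gave -2.63 to 0.92. The difference between the agents in the DHRS3 change between days 5 and 21 reversed to 0.74 (adjusted p = 0.036) on log2(RPKM + 1). The number of the 9 genes called moved by over 1.5 times in these cases. On only the 4 libraries compared it was 4 (not 2) for BMP2 day 5 over day 0, 0 (not 3) for BMP2 day 10 over day 0, 5 (not 3) for BMP2 day 21 over day 0, 0 (not 4) for RA over BMP2 at day 10, 8 (not 5) for RA day 21 over day 5, and 2 (not 1) for BMP2 day 21 over day 5. On log2(RPKM + 1) and log2(RPKM + 0.1) it was 1 for BMP2 day 5 over day 0, and on log2(RPKM + 1) it was 1 for BMP2 day 10 over day 0. With the 2 alike BMP2 libraries both left out it was 5 for BMP2 day 21 over day 0. For BMP2 day 21 over day 5 it was 2 with no filter, 2 with DESeq2, 3 without both BMP2 day 10 libraries and 3 with the alike pair left out. The cause was not tested, except that limma tested 7 of the 9 genes and only 11641 genes.

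Leaving out 1 library at a time gave 1 to 6 called at RA day 5, 2 to 7 at RA day 10 and 4 to 7 at RA day 21 over day 0, and 0 to 3, 1 to 4 and 2 to 4 at BMP2 days 5, 10 and 21. RA over BMP2 gave 2 to 7, 3 to 6 and 1 to 6 at days 5, 10 and 21, RA day 21 over day 5 gave 2 to 7, and BMP2 day 21 over day 5 gave 0 to 3.

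Over all genes the numbers called ranged from 345 to 3236 at RA day 5 (reported fit 1591), 1500 to 6707 at RA day 10 (4593), 5271 to 11864 at RA day 21 (8529), 2512 to 7328 at BMP2 day 5 (5597), 1019 to 8162 at BMP2 day 10 (6947) and 6159 to 10414 at BMP2 day 21 (9012). They ranged from 502 to 4288 (2338), 9 to 4857 (2075) and 289 to 5326 (2308) for RA over BMP2 at days 5, 10 and 21, 1913 to 8884 (5503) for RA day 21 over day 5, and 1 to 5412 (2972) for BMP2 day 21 over day 5. On log2(RPKM + 1), the share of calls that were higher was 53.3% at RA day 5 (67.3% in the reported fit), 43.2% and 43.4% at BMP2 days 5 and 10 (54.3% and 54.7%), 63.9%, 76.4% and 74.1% for RA over BMP2 at days 5, 10 and 21 (48.8%, 47.2% and 49.7%), and 63.9% for the difference between the changes (43%). At RA day 10 it was 66.7% on log2(RPKM + 0.1), against 53.9%. On log2(RPKM + 0.1) the median of all genes was 0.14 and 0.13 at RA days 10 and 21, and 0.19 and 0.20 for RA over BMP2 at days 10 and 21; the members' values there were not rescaled.

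Equal replicate numbers were not taken to pair libraries: over 21 pairs of groups the correlation of their deviations ran from -0.34 to 0.15, with 3 above 0.1. With the replicate block the calls of ALDH1A2 at RA day 10 over day 0 (2.67, adjusted p = 0.078), STRA6 for RA over BMP2 at day 5 (2.91, 0.069), CRABP2 for RA over BMP2 at day 21 (3.45, 0.066) and CRABP2 at RA day 21 over day 5 (-2.96, 0.058) ended, and no other call of the 9 genes did. Of the named genes of the other list, LRP2 at RA day 5 over day 0 (4.39, 0.055) and SDR16C5 for RA over BMP2 at day 10 (-4.91, 0.058) lost their calls with it. CYP26C1, CYP26B1 outside RA and ALDH1A2 in untreated and RA day 5 libraries (23 to 51 counts each) rest on few counts.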
